A study of Mus musculus with 6 samples.

Results

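The 9 genes described here encode the surface molecules by which antigen-presenting cells stimulate or restrain T cells: Cd80, Cd86, Icosl, Cd274, Pdcd1lg2, Cd276, Cd40, Tnfsf9 and Havcr2. They were chosen by symbol as a fixed list, with earlier results of these data known, out of 27364 distinct symbols among the transcript clusters tested. Each of the 9 had exactly 1 transcript cluster, the set of array probes that reads 1 transcript region. The RNA came from CD11brGFP mice aged 2 to 3 months, in which the CD11b promoter, active in myeloid cells, drives RPL10a, a protein of the ribosome, fused to Flag and EGFP. One group received LPS, bacterial endotoxin, at 5 mg/kg for 24 h, and the other received saline for the same time; all mice in both groups carried the transgene. Ribosome-bound mRNA was taken by translating ribosome affinity purification, in which the tag pulls down ribosomes with the mRNA they hold, and 100 ng per sample was hybridised to a whole-transcript mouse gene array from Affymetrix. Each group had 3 arrays, called biological replicates by the labels, and each sample's source label reads n=5, taken here as 5 pooled mice per array. The labels also say that a group contains 5 mice, so how many animals stand behind the spread between 3 arrays is not certain. The sources used here do not name the tissue.

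Activation of a T cell needs a second signal beside the antigen, and the molecules of the B7 family deliver it. CD80 and CD86 bind CD28, which stimulates, and CTLA-4, which restrains. ICOS ligand binds ICOS and sustains T-cell help, whereas the ligands PD-L1, encoded by Cd274, and PD-L2, encoded by Pdcd1lg2, bind PD-1 and dampen the response. CD40 works in the other direction: T cells that carry CD40 ligand engage it and thereby license the presenting cell, and the product of Tnfsf9 stimulates T cells through the receptor encoded by Tnfrsf9. Microglia and other tissue macrophages are known to display little of these molecules at rest and, in culture, more of several of them after LPS or interferon-gamma.

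None of the 9 genes passed the test between LPS and saline. Icosl and Cd274 had the greatest differences, about 1.7-fold higher after LPS on average. In these genes and in Cd86 every LPS array lay above every saline array. For Cd86 this held only just, with LPS 2 at 4.3694 against saline 3 at 4.3685. Cd80, Tnfsf9 and Pdcd1lg2 had smaller positive differences in which the groups overlapped, and the differences of Cd40, Cd276 and Havcr2 were slightly negative. The signals were low: as a gauge of dim clusters, 95% of the 1105 clusters for olfactory receptor genes had a mean log2 signal under 4.92, and Cd86, Pdcd1lg2, Cd80 and Tnfsf9 lay below that value too, with means over the 6 arrays of 4.43, 4.62, 4.84 and 4.89. Signals of different clusters depend on their probes, so this order is no order of transcript abundance.

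The test was limma's moderated linear model across all 34472 clusters in the authors' deposited comparison table, two-sided, with Benjamini-Hochberg adjustment over all of them at a threshold of 0.05. It called 1 cluster (0.0029% of those tested), and 0 of the 9 genes, each of which had a limma adjusted p of 0.9999. At an unadjusted p under 0.05 there were 2 of 9 genes, Icosl and Cd274, both higher in LPS, against 1.49% of all clusters in that direction and 0.772% in the other. An unmoderated linear model gave 0 of 9 at an unadjusted p under 0.05. Differences below are LPS minus saline in log2 units, an error marked SE is limma's moderated standard error, and one marked SD is between the 3 arrays of a group.

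Both arrays numbered 3 stood apart. LPS 3 and saline 3 lay together on the first principal component, which held 53.2% of the variance, away from the other 4 arrays, and the labels name no reason. Over all clusters the median offset of LPS 3 from the mean of LPS 1 and LPS 2 was 0.20, and that of saline 3 from the mean of saline 1 and saline 2 was 0.17. Several of the genes here had wider offsets, so values without these arrays are given for them. Icosl (0.72 for LPS 3 and 0.36 for saline 3) and Cd274 (0.85 and 0.25) were among them. Deviations of same-numbered arrays correlated positively, by the check given with the processing. Only for the number 3 did both arrays correlate more with each other than with other arrays of the opposite group. The differences within each number are shown as well.

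**Figure D1:**
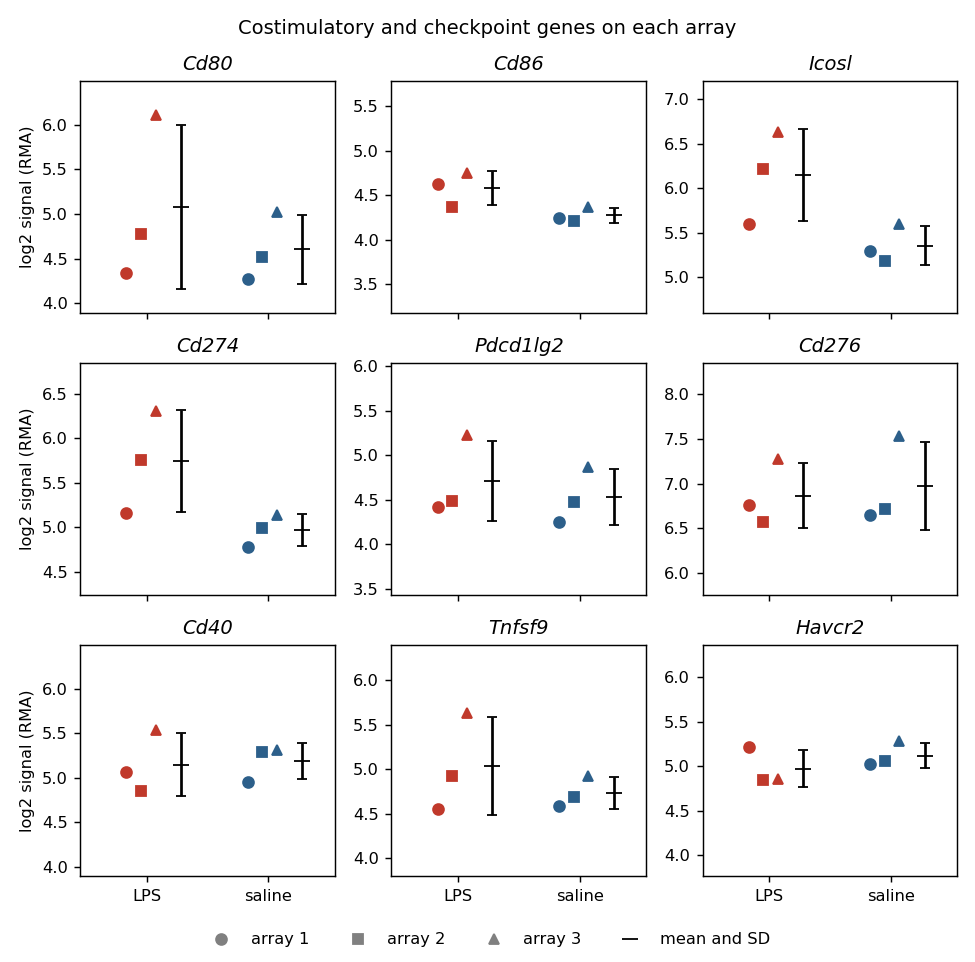
Log2 RMA signal of the 9 genes on each array, LPS at the left and saline at the right of each panel, with circle, square and triangle for arrays 1, 2 and 3 and a bar for the mean and SD of a group; every panel spans the same number of log2 units. The LPS and saline points do not overlap for Cd86, Icosl and Cd274, though in Cd86 LPS 2 (4.3694) and saline 3 (4.3685) nearly coincide. The triangles of Cd80 (6.12 in LPS 3 and 5.03 in saline 3) lie above the other arrays of their groups.

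The sequences upstream of 3 genes are shown because Icosl and Cd274 had the greatest differences of the list, while Pdcd1lg2, on chromosome 19 beside Cd274 with 1 annotated gene (Gm36043) starting between them, had a smaller one. Each is the 250 bases before the gene's annotated start, from RefSeq on GRCm38.p6, plus strand, written 5′ to 3′, with CpG dinucleotides in capitals. The windows are chr10:78069118-78069367 for Icosl, chr19:29367188-29367437 for Cd274 and chr19:29410669-29410918 for Pdcd1lg2.
Icosl: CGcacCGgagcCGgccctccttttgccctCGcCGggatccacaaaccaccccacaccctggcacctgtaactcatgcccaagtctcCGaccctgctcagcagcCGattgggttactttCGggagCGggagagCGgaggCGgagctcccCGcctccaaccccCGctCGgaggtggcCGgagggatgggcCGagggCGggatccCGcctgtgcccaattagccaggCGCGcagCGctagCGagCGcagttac
Cd274: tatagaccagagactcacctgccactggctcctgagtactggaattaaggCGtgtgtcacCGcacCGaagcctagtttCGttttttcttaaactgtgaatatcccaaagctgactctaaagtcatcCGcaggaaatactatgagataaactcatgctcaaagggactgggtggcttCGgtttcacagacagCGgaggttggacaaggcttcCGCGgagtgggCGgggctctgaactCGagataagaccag
Pdcd1lg2: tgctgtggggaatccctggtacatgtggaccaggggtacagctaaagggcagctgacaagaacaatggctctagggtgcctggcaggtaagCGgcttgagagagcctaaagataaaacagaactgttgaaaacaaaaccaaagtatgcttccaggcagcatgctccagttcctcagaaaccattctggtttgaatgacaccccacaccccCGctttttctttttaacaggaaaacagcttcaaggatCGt
The Icosl window was the richest of the 3 in G and C (68.8%) and held 23 CpG dinucleotides, a number that 13.3% of the 32851 promoter windows of this length reach. The Cd274 window had 11 (50.4% G and C), and that of Pdcd1lg2 had 3 (48.4% G and C), against a median of 6 over all windows. Windows were found for 6 of the 9 genes, those of Cd80 and Havcr2 with 3 and 2 CpG dinucleotides and that of Cd276 with 29. A search of both strands for an interferon-stimulated response element core (GAAA, any 2 bases, GAAA; in 2.98% of all windows), a gamma-activated site (TTCNNNGAA, in 7.02%) and a kappa-B-like site (GGG, any 2 bases, TTTCC; in 1.41%) found a match in 0 of these 6 windows, which says only that these letters are not in them.

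Among the ligands that stimulate T cells, Icosl (cluster 17234786) had the greatest difference. Its log2 signal was 5.60, 6.21 and 6.63 in LPS 1, LPS 2 and LPS 3, against 5.298, 5.18 and 5.60 in saline 1, saline 2 and saline 3. The groups did not overlap, although LPS 1 and saline 3 were both at 5.60 after rounding. The means were 6.15 ± 0.52 after LPS and 5.36 ± 0.21 after saline (SD, n = 3 each). The difference was 0.79 ± 0.26 SE, 1.73-fold, with a 95% interval of 0.18 to 1.40. It was 0.30 between the arrays numbered 1 and 1.03 in both of the other pairs, and 0.67 without both arrays numbered 3. Of all clusters, 0.444% had a greater positive difference.

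Cd86 (cluster 17330203), the B7 molecule that presenting cells usually carry first, showed a small difference with little spread. Its log2 signal was 4.62, 4.37 and 4.75 in the LPS arrays and 4.24, 4.21 and 4.37 in the saline arrays. LPS 2 (4.3694) exceeded saline 3 (4.3685) by less than 0.001, so the absence of overlap rests on the third decimal. The difference was 0.31 ± 0.16 SE, 1.24-fold, with a 95% interval of -0.06 to 0.68. All 3 same-numbered pairs were positive, at 0.38, 0.16 and 0.38, and the difference was 0.27 without both arrays numbered 3.

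Cd80 (cluster 17325608), which binds the same receptors as CD86, followed the arrays numbered 3. It had 4.34, 4.78 and 6.12 in LPS 1, LPS 2 and LPS 3, and 4.27, 4.52 and 5.03 in saline 1, saline 2 and saline 3. The groups overlapped, with LPS 3 far above the rest and LPS 1 below saline 2 and saline 3. The difference was 0.47 ± 0.43 SE (95% interval -0.50 to 1.45), and it was -0.04 without LPS 3, 0.84 without LPS 1 and 0.17 without both arrays numbered 3. LPS 3 exceeded the mean of LPS 1 and LPS 2 by 1.56, and saline 3 exceeded that of saline 1 and saline 2 by 0.63.

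Cd80 and Cd86 were also set against each other by the difference of their log2 signals within each array. Both lay under the dim gauge of 4.92, so this difference cannot settle whether the genes responded differently. Cd80 minus Cd86 was -0.28, 0.41 and 1.36 in the LPS arrays and 0.03, 0.31 and 0.66 in the saline arrays. The groups overlapped, and their means differed by 0.17 (two-sided exact permutation test, p = 0.8, where 3 against 3 arrays cannot give less than 0.1). The sign turned to -0.27 without LPS 3 and to -0.10 without both arrays numbered 3.

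Tnfsf9 (cluster 17338959), the ligand that stimulates T cells through a receptor of the TNF family, also varied most in the arrays numbered 3. Its log2 signal was 4.56, 4.92 and 5.64 in the LPS arrays and 4.58, 4.69 and 4.93 in the saline arrays. LPS 1 was the lowest of all 6 and LPS 3 the highest, so the groups overlapped. The difference was 0.31 ± 0.27 SE (95% interval -0.31 to 0.92), and 0.006 without LPS 3. Leaving out LPS 3 together with saline 3 gave 0.10.

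Of the ligands that restrain T cells, Cd274 (cluster 17358544), the gene of PD-L1, had 5.16, 5.76 and 6.31 in LPS 1, LPS 2 and LPS 3. Saline 1, saline 2 and saline 3 had 4.78, 4.99 and 5.14, all below the lowest LPS array. The LPS arrays spread more widely than the saline arrays: the means were 5.74 ± 0.57 after LPS and 4.97 ± 0.18 after saline (SD, n = 3 each). The difference was 0.77 ± 0.28 SE, 1.71-fold, with a 95% interval of 0.13 to 1.41. It was 0.38, 0.76 and 1.17 between the arrays numbered 1, 2 and 3. It was 0.57 without both arrays numbered 3, 0.49 without LPS 3 and 1.06 without LPS 1. Of all clusters, 0.482% had a greater positive difference.

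Pdcd1lg2 (cluster 17358552), the gene of the other PD-1 ligand, showed no such separation. Its log2 signal was 4.42, 4.48 and 5.22 in the LPS arrays, against 4.25, 4.47 and 4.87 in the saline arrays. The arrays numbered 3 were the highest of each group, and the groups overlapped. The difference was 0.18 ± 0.26 SE (95% interval -0.42 to 0.77), and -0.08 without LPS 3. Leaving out LPS 3 together with saline 3 gave 0.09. The authors' deposited table, which averages a group by a bi-weight mean that gives less weight to an outlying array, lists averages of 4.45 for LPS and 4.51 for CTL and a fold of -1.04, where the minus sign means lower in LPS.

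Cd274 minus Pdcd1lg2 within an array was 0.74, 1.27 and 1.09 in LPS 1, LPS 2 and LPS 3, and 0.53, 0.52 and 0.27 in saline 1, saline 2 and saline 3. The groups did not overlap. Pdcd1lg2 lay under the dim gauge, so this value largely repeats the difference of Cd274 and does not show that Pdcd1lg2 failed to respond. The means were 1.03 ± 0.27 after LPS and 0.44 ± 0.15 after saline (SD, n = 3 each), a difference of 0.59 (two-sided exact permutation test, p = 0.1, the smallest that 3 against 3 arrays can give, and 0.2 adjusted over the 2 gene pairs tested). It stayed between 0.47 and 0.74 when any 1 array was left out.

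Cd276 (cluster 17527719), a B7 family member for which no T-cell receptor is firmly established, gave the highest signal of the 9 clusters. It had 6.76, 6.57 and 7.27 in the LPS arrays and 6.65, 6.72 and 7.54 in the saline arrays. Both arrays numbered 3 were above the other 4, and the groups overlapped. The difference was -0.10 ± 0.28 SE (95% interval -0.75 to 0.54), and it turned to 0.18 without saline 3 and to 0.04 without LPS 2. It was -0.02 without both arrays numbered 3. The authors' deposited table lists a fold of 1.07, with averages of 6.79 for LPS and 6.69 for CTL.

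Cd40 (cluster 17379659), the receptor through which helper T cells license presenting cells, had 5.06, 4.85 and 5.53 in LPS 1, LPS 2 and LPS 3. It had 4.95, 5.29 and 5.31 in saline 1, saline 2 and saline 3. The groups overlapped fully, with the lowest and the highest value both after LPS. The difference was -0.04 ± 0.21 SE, with a 95% interval of -0.53 to 0.45. For the array signal this leaves out a 1.5-fold change in either direction. The mean log2 signal of Cd40, 5.17, lay just above the dim gauge and under the median of all clusters, 5.23. Differences of dim clusters can be compressed, so the interval cannot exclude a 1.5-fold change of the mRNA. The sign of the difference turned when LPS 1, LPS 2, saline 2 or saline 3 was left out, at 0.007, 0.11, 0.02 and 0.03. Without both arrays numbered 3 it was -0.17.

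Havcr2 (cluster 17248809) encodes TIM-3, an inhibitory receptor of T cells that myeloid cells, microglia among them, also carry. Its log2 signal was 5.21, 4.85 and 4.86 in the LPS arrays and 5.02, 5.06 and 5.28 in the saline arrays. LPS 2 and LPS 3 were the lowest of the 6 and LPS 1 lay among the saline arrays. The difference was -0.15 ± 0.17 SE (95% interval -0.54 to 0.25), and -0.01 without both arrays numbered 3. Havcr2 was the 1 gene of the list whose LPS 3 value lay below the mean of LPS 1 and LPS 2, by -0.17.

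**Figure D2:**
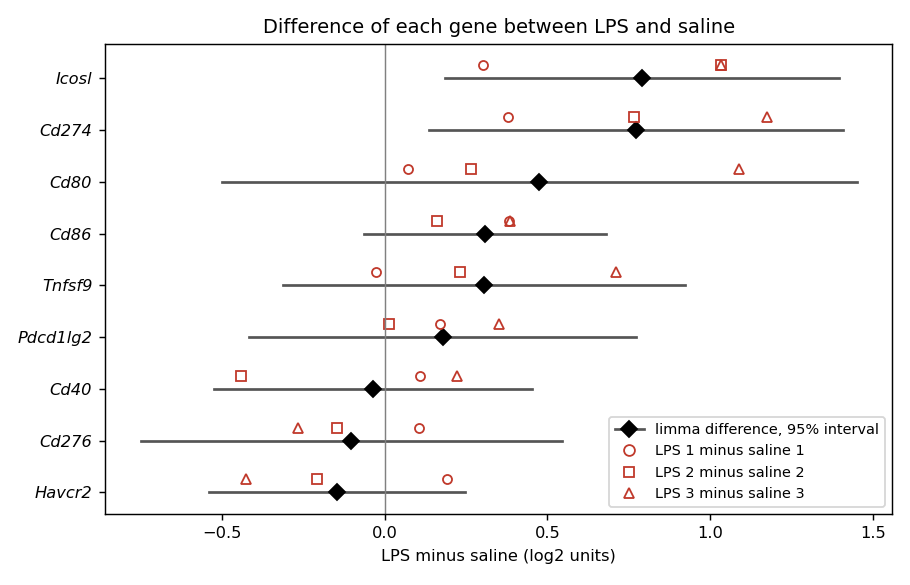
LPS minus saline in log2 units for the 9 genes, in order of size. Diamonds and lines give limma's difference and its 95% interval, and open circles, squares and triangles the difference between the arrays numbered 1, 2 and 3. The intervals of Icosl (0.18 to 1.40) and Cd274 (0.13 to 1.41) lie above 0 before adjustment, and the other 7 include 0.

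Read as a list, 6 of the 9 genes had a positive difference and 3 a negative one, with a median of 0.31, beside a median of -0.002 and 49.6% positive over all clusters. Without both arrays numbered 3 the list's median was 0.10. The lowest LPS array exceeded the highest saline array in 3 of 9 genes, against 3.61% of all clusters, and the reverse held in 0 of 9, against 3.1%. Cd86 counted among the 3 only just (4.3694 in LPS 2 against 4.3685 in saline 3). Without both arrays numbered 3 the count was again 3 and the share of all clusters 16%. Leaving arrays out can only keep or raise either value. In the same-numbered pairs LPS was the higher in all 3 for 5 genes, Cd80, Cd86, Cd274, Pdcd1lg2 and Icosl, against 13.1% of all clusters. For Cd86, Cd274 and Icosl, whose groups did not overlap, this was fixed in advance, so it adds no separate support. The smallest pair differences of Cd80 (0.07, number 1) and Pdcd1lg2 (0.01, number 2) were slight. Pairing is not settled for the numbers 1 and 2. In order of difference, each gene's 95% interval overlapped those of its neighbours.

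**Figure D3:**
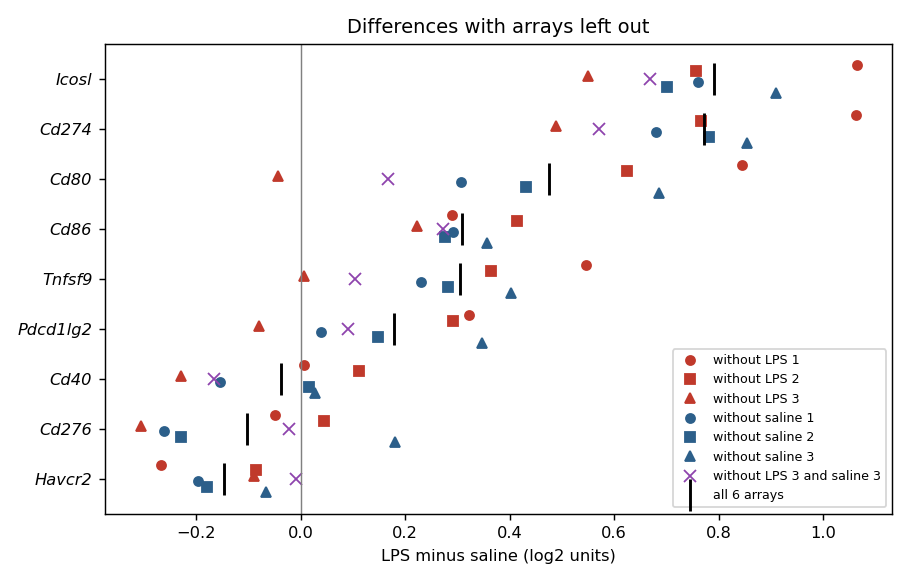
LPS minus saline in log2 units for the 9 genes with all 6 arrays (vertical bars), with 1 LPS array (red) or 1 saline array (blue) left out, and without both arrays numbered 3 (crosses). Icosl and Cd274 stay at 0.49 or more in every case drawn, whereas Cd80, Pdcd1lg2, Cd40 and Cd276 lie on both sides of 0.

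Across the 6 arrays the genes fell into patterns that mix treatment with the offset of the arrays numbered 3. Icosl and Cd274 varied together (Pearson r = 0.98), as did Cd80 and Tnfsf9 (r = 0.99) and Cd80 and Pdcd1lg2 (r = 0.96). Havcr2 ran against Cd274 (r = -0.66) and Icosl (r = -0.63). These are descriptions over 6 arrays that share treatment and offset. Among 5938 brighter and more variable genes, the one most like Cd274 was Osmr, which encodes the receptor for oncostatin M (r = 0.996), and the one most like Icosl was Serping1, which encodes the C1 inhibitor (r = 0.998). For Cd86 it was Ifit2, an interferon-induced gene (r = 0.967). For Cd80, Tnfsf9, Pdcd1lg2, Cd276, Cd40 and Havcr2 they were Traf3ip2, Kdm4d, Ccnd3, Chd3, 4930441O14Rik and Zfp420, with r from 0.962 to 0.9998. The search takes the highest of many values. An r over 0.95 was reached by 79 genes for Cd274, 97 for Icosl, 104 for Cd80, 75 for Tnfsf9 and 176 for Pdcd1lg2. The number was 3 for Cd86, 3 for Cd40 and 4 for Havcr2. For Cd276, where both arrays numbered 3 stand out, it was 698.

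The partners of these ligands were measured on the same arrays. Of 10 receptors and counter-ligands, 0 passed the limma test over all clusters, 1 had an unadjusted p under 0.05 (higher in LPS, against 1.49% of all clusters), and the median difference was 0.11. That 1 was Lgals9, the gene of galectin-9, a ligand of TIM-3. It had 7.99, 8.09 and 8.41 in the LPS arrays and 7.38, 7.14 and 7.19 in the saline arrays, a difference of 0.92 ± 0.17 SE (limma adjusted p = 0.567). Its groups did not overlap, while those of Havcr2 did. Pdcd1, the gene of PD-1, had 4.84, 5.11 and 5.37 in the LPS arrays and 4.57, 4.60 and 4.99 in the saline arrays, which overlap. The receptor genes Cd28, Ctla4, Icos and Tnfrsf9, and Cd40lg, the gene of CD40 ligand, gave low signals and all averaged under 4.92 in both groups. Pdcd1 averaged 5.11 after LPS and 4.72 after saline.

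Other ligands and regulators of the B7, TNF and immunoglobulin families were nearer to 0. Of the 23 measured out of 25 listed, 10 had a positive and 13 a negative difference, the median was -0.03, and 0 passed over all clusters. Tnfsf8, which encodes the ligand of CD30, was the 1 of 23 with an unadjusted p under 0.05, against 1.49% of all clusters higher and 0.772% lower in LPS. It differed by 0.48 ± 0.18 SE, at 3.82, 3.54 and 4.13 in the LPS arrays and 3.27, 3.39 and 3.39 in the saline arrays. Those signals lie under the dim gauge of 4.92 on every array.

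Of the 11 measured genes that carry the CD40 signal, 0 passed over all clusters, 3 had an unadjusted p under 0.05 (higher in LPS, against 1.49% of all clusters), and the median difference was 0.15. The LPS arrays lay above every saline array in 3 of the 11, against 3.61% of all clusters. These are the same 3 genes, so this count adds no separate support. For 1 of them, Traf5, a second cluster differs from the one used. Birc3, a ubiquitin ligase bound by TRAF proteins, differed by 0.47 ± 0.19 SE, and Nfkb2, which encodes the NF-kB precursor p100, by 0.39 ± 0.16 SE. Traf5, an adaptor of TNF-family receptors, had 6.33, 5.75 and 5.21 in LPS 1, LPS 2 and LPS 3 and 4.55, 5.11 and 4.97 in saline 1, saline 2 and saline 3 on the brighter of its 2 clusters (0.89 ± 0.29 SE). The clusters of Traf5 disagree: that one is annotated with a microRNA gene as well, and the other, annotated with Traf5 alone, had a difference of -0.19 ± 0.24 SE.

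Of 9 genes known to regulate PD-L1, 0 passed over all clusters, 2 had an unadjusted p under 0.05 (higher in LPS, against 1.49% of all clusters), and the median difference was 0.001. Stat3, which transmits signals of the interleukin-6 family, had 9.30, 9.59 and 9.91 in the LPS arrays and 8.94, 9.03 and 8.83 in the saline arrays, a difference of 0.67 ± 0.19 SE. Irf1, a transcription factor known to act on the Cd274 promoter, had 5.73, 6.08 and 6.31 in the LPS arrays and 5.56, 5.49 and 5.64 in the saline arrays (0.47 ± 0.18 SE). The LPS arrays lay above every saline array in 2 of the 9, against 3.61% of all clusters. These are the same 2 genes, so this count adds no separate support. In both of them LPS 3 was the highest array, as in Cd274.

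**Figure D4:**
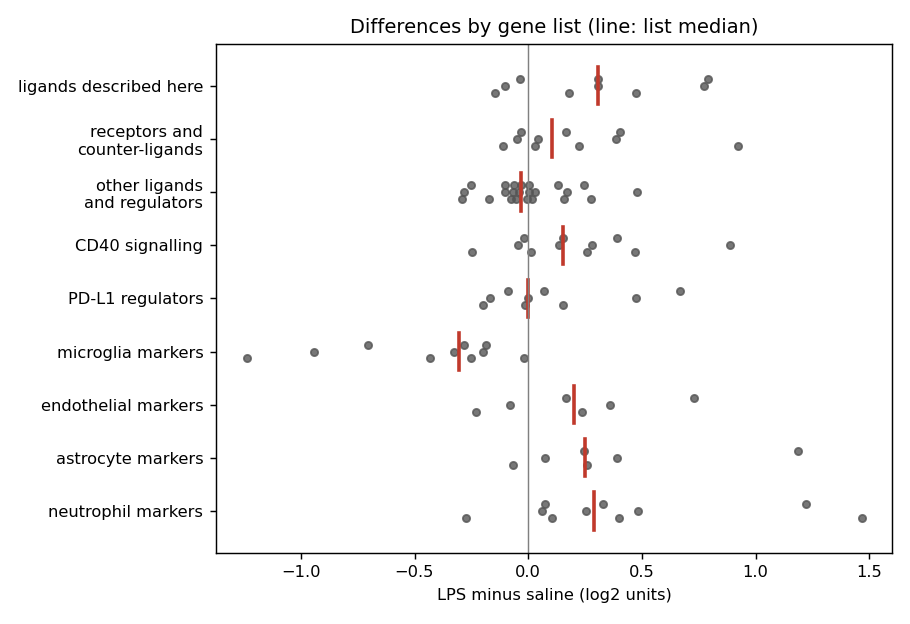
LPS minus saline in log2 units for each gene (points) of the ligands described here, of their partners and pathways, and of 4 lists of cell type markers, with a line at each list's median. The ligands' median is 0.31, that of the microglia markers -0.30 and those of the endothelial, astrocyte and neutrophil markers 0.20, 0.25 and 0.29.

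Markers of several cell types were read beside these genes, and their part in the differences was not tested. No marker passed the limma test over all clusters. At an unadjusted p under 0.05, 3 of 10 microglia markers were lower in LPS, against 0.772% of all clusters. Of 8 dendritic cell markers 1 was lower, and it is also in the microglia list. Higher in LPS were 1 of 6 endothelial, 1 of 6 astrocyte, 2 of 10 neutrophil and 1 of 6 monocyte markers, against 1.49% of all clusters. The other marker lists had 0 in either direction. Fewer cells of a type and less RNA per cell cannot be told apart in such bulk samples. All 10 microglia markers had a negative difference (median -0.30), and their mean log2 signal ranged from 6.20 to 6.66 in the LPS arrays and from 6.67 to 6.93 in the saline arrays. Of 6 endothelial markers 4 were positive (median 0.20; list mean 5.59 to 6.02 in LPS, 5.49 to 5.69 in saline). Of 6 astrocyte markers 5 were positive (median 0.25; list mean 8.32 to 8.51 in LPS, 7.92 to 8.22 in saline), and of 10 neutrophil markers 9 were (median 0.29; list mean 4.51 to 4.98 in LPS, 4.21 to 4.49 in saline). The marker of greatest absolute difference was P2ry12 in the microglia list (-1.24 ± 0.34 SE), Cldn5 in the endothelial list (0.73 ± 0.27 SE), Gfap in the astrocyte list (1.19 ± 0.28 SE) and S100a8 in the neutrophil list (1.47 ± 0.44 SE). P2ry12 and Gfap did not overlap between the groups, while Cldn5 (5.47 in LPS 1 against 5.48 in saline 3) and S100a8 did. In these 4 lists, 3 of 10 microglia markers had every LPS array below every saline array, against 3.1% of all clusters. The reverse held for 0 of 6 endothelial, 1 of 6 astrocyte and 1 of 10 neutrophil markers (S100a9, 1.22 ± 0.24 SE), against 3.61% of all clusters. Of the other endothelial markers, Flt1 (-0.08) and Tek (-0.23) were negative. Negative too were Gja1 (-0.07) in the astrocyte list and Ly6g (-0.27) in the neutrophil list. Above the dim gauge of 4.92 lay 9 of 10 microglia markers, 5 of 6 endothelial and all 6 astrocyte markers, but 3 of 10 neutrophil, 3 of 6 B cell and 4 of 7 T cell markers. The dendritic cell, B cell and T cell lists had medians of -0.007, -0.001 and -0.006, and those of border macrophages, monocytes and oligodendrocytes 0.05, -0.16 and -0.12.

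The tag was not measured here. Itgam, the endogenous gene of CD11b, had 7.10, 7.11 and 6.99 in the LPS arrays and 6.91, 6.79 and 6.46 in the saline arrays (0.35 ± 0.17 SE). Rpl10a, the endogenous gene of the protein that carries the tag, whose cluster is also annotated with a pseudogene and may read the transgene too, overlapped between the groups (0.20 ± 0.31 SE). Markers of neurons, which are not myeloid cells, had a mean log2 signal of 10.94 to 11.01 in the LPS arrays and 10.95 to 11.04 in the saline arrays, with a median difference of -0.02. The cell type that gave each ligand's signal was therefore not measured.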

How the data were processed

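Ribosome-bound mRNA of 3 LPS and 3 saline samples was read on 6 arrays, whose number limits the precision. The authors deposited log2 signals per transcript cluster, for which the submitters' processing notes name RMA and Affymetrix Expression Console. RMA subtracts background and equalises probe distributions, and the differences of dim clusters can still be compressed. The authors' deposited comparison table, from Transcriptome Analysis Console 3.0 per the series' design text, gives bi-weight log2 averages, an analysis of variance p-value with its adjusted p-value and, per the file headers, a signed linear fold, treated here as a score because it is negative where LPS is lower. The sources used here name neither the genome build nor the other versions.

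Of 41345 clusters, the 34472 with an entry in that table were tested with limma 3.58.1 in R 4.3.3 (group as the only term), and the script was tested on simulated data. Gene names are those of the table, with RefSeq synonyms where a symbol was older. A gene with several clusters was represented by the one with the highest mean. The authors' p-values lay within 0.001 of an unmoderated linear model for 99.997% of clusters. The differences Cd80 minus Cd86 and Cd274 minus Pdcd1lg2 within an array were tested by exact permutation over arrays.

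Same-numbered arrays were checked for pairing. Deviations from the group means correlated by 0.27, 0.12 and 0.56 for the numbers 1, 2 and 3, all over the criterion of 0.1. However, LPS 1 correlated more with saline 2 (0.41) and LPS 2 more with saline 1 (0.14), so pairing is not settled for the numbers 1 and 2. The meaning of the numbers is not in the labels. The replicate block was an alternative, beside each array or both arrays numbered 3 left out, median centring, repeated quantile normalization, a filter on dim clusters, all clusters, array weights and no moderation.

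The members, gene lists and tests were chosen with earlier results of these data known. The named genes were all 9 members, genes of 4 pathway lists at an unadjusted p under 0.05 (at most 4 a list), the most similar gene of each member (among genes with a mean above the median and an SD of at least 0.25), Itgam and Rpl10a. Pdcd1, the other receptor genes, Cd40lg and the cell type markers P2ry12, Cldn5, Flt1, Tek, Gfap, Gja1, S100a8, S100a9 and Ly6g were named after their values were seen. So were the olfactory receptor gauge and the 3 motifs. Map3k14, Cd200, Hhla2, Clec9a and Trac were not analysed here. Of the list of PD-L1 regulators, 1 gene is not reported here.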

Additional observations from a re-analysis of the deposited data

How the results depend on the processing

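None of the 9 genes passed the limma threshold over all clusters under any of the 14 alternatives run, the replicate block among them (0 of 9), except that the filter on dim clusters left Icosl, Cd274 and Cd276 as the only ones to test. The number of clusters called, 1 with all 6 arrays, ranged from 0 to 12 with 1 array left out (0 without LPS 2, LPS 3, saline 1 or saline 2, 12 without LPS 1, 1 without saline 3). It was 3 with the replicate block, 22 with array weights, 2 without both arrays numbered 3, and 0 over all clusters of the value table or without moderation. At an unadjusted p under 0.05, Icosl and Cd274 each counted in 10 of 14 alternatives and Cd86 in 1, the replicate block. With that block Icosl had a limma adjusted p of 0.518 and Cd274 of 0.516. The 3 genes whose groups did not overlap with all 6 arrays were Cd86, Cd274 and Icosl. They were the same 3 after median centring and after repeated quantile normalization, against 2.92% and 3.73% of all clusters. Leaving arrays out cannot make separate groups overlap, so in those alternatives the separation of these 3 was fixed in advance. No other gene of the list joined them there.

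With 1 array left out, the difference ranged from 0.55 to 1.06 for Icosl, 0.49 to 1.06 for Cd274, 0.22 to 0.41 for Cd86, 0.006 to 0.55 for Tnfsf9 and -0.27 to -0.07 for Havcr2. It changed sign for Cd80 (-0.044 to 0.84), Pdcd1lg2 (-0.080 to 0.35), Cd276 (-0.31 to 0.18) and Cd40 (-0.23 to 0.11), and the cause was not tested. Cd80 minus Cd86 ranged from -0.27 to 0.55 and was -0.10 without both arrays numbered 3. With the replicate block its value was 0.17 and that of Cd274 minus Pdcd1lg2 0.59. Each gene has 1 cluster, so averaging its clusters changed nothing. Centring the arrays moved the median of all clusters by less than 0.1 and turned no sign. The precision is limited by 3 arrays a group and, for 4 of the genes, by signals under the level that 95% of olfactory receptor clusters stay below.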
